A study of Mus musculus with 6 samples.

Results

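The genes described here encode the subunits of the proteasome and the proteins that assemble, cap or regulate it. They were taken by name from the deposited count table: every row whose symbol starts with Psma, Psmb, Psmc, Psmd, Psme, Psmf or Psmg and a digit, without the immunoproteasome genes Psmb8, Psmb9 and Psmb10 and without rows with a numbered suffix that marks a further copy of a symbol. This gave 48 of 23505 gene rows. RNA was sequenced from liver CD4+ T cells of wild-type mice given concanavalin A (ConA), a lectin that drives T cells into an attack on the liver. In 1 group, called ConA, the gavage held only the vehicle, phosphate-buffered saline, and in the other, called ConA+SIM, it held the statin simvastatin at 30 mg/kg. Gavage was given each day over the 5 days ahead of ConA, again 1 h ahead of it and once more 24 h later, so every library is from ConA-injected mice and no library shows the proteasome genes without ConA. The sorted cells carried CD3 and CD4 and lacked CD8 and NK1.1, and each group held 3 libraries. The sources used here give neither strain, sex and age of the mice nor whether a library holds 1 animal or a pool.

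The proteasome is the cell's main protease for proteins tagged with ubiquitin. Its barrel, the 20S core, is a stack of rings of alpha subunits, which form the gate, and beta subunits, some of which cut peptide bonds. The 19S regulatory particle binds an end of the barrel: its base holds a ring of ATPases that unfold and feed in the substrate, and its lid holds the enzyme that removes the ubiquitin chain. In activated T cells the proteasome degrades inhibitors of NF-kappaB and cell cycle regulators, and it makes peptides for MHC class I.

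Total counts ran from 17549429 to 25031862 per library, and 3 counts, the upper limit that a count of 0 allows, equalled 0.118 to 0.174 CPM (counting error only). CPM are counts scaled to the TMM-adjusted library total. ConA+SIM replicate 2 stood apart: 18.4% of all tested genes were at 0 counts in it, against 2.76% to 9.98% in the other libraries. Cd3d, a chain of the T cell receptor complex, was present in every library, at 311 to 699 CPM, as was Cd3e, at 153 to 407 CPM.

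Of the 48 proteasome genes, 44 had enough counts to be tested. Psma8, the testis-type alpha subunit, and Psmb11, the thymus-type beta subunit, had 0 counts in every library. Psme2b, a gene close in sequence to Psme2, held 6 counts in all, and Psmb6 held 2. By edgeR's quasi-likelihood test 0 of the 44 were called higher and 0 lower in ConA+SIM (adjusted p under 0.05), where 0.542% of all 10509 tested genes were called higher and 0% lower. The lowest adjusted p among them was 0.113, that of Psma3. At an unadjusted p under 0.05 there were 10 higher and 0 lower, against 5.31% higher and 3.54% lower among all tested genes. DESeq2 called 7 higher (3.39% of all tested genes), limma-voom 1 (1.14%) and voom with sample quality weights 3 (1.21%), and each of these tools called 0 lower, against 1.89%, 0.0761% and 0.0952% of all tested genes. DESeq2 gave no adjusted p for Psmd9, Psmd10, Psmf1, Psmg1 to Psmg4, Psmc3ip and Psme3ip1. It also gave none for 5709 of the 10509 tested genes, which count as not called in its shares. Its shares among genes with an adjusted p are therefore higher than those given. Values in ConA+SIM lay above those in ConA without overlap in 12 of the 44 and below in 0, where 9.18% of all tested genes were separated upwards and 8.57% downwards. Log2 fold changes were above 0 in 32 of the 44 and below in 12, against 48% and 52% of all tested genes. The median log2 fold change of the 44 was 0.33, beside -0.04 for all tested genes. Per library, by replicate number, their median log2(CPM + 1) less each gene's mean was 0.03, -0.51 and 0.09 for ConA. The ConA+SIM libraries had 0.41, -0.03 and 0.43, so the groups overlapped, ConA+SIM replicate 2 lying inside the ConA range. These library medians had a replicate SD of 0.30. The 44 genes share the same 6 libraries, so counts over genes do not add replicates. The median log2 fold change was 0.54 without ConA+SIM replicate 2, 0.52 without ConA replicate 3 and 0.22 without ConA replicate 2. With offsets fitted to the trend with transcript length it was 0.08, below the 0.13 of all tested genes, and with length and GC content 0.09, below 0.12. The 0.13 is not a reference of like length, since the 44 had a median transcript length of 1490 nt. After length offsets all tested genes of 1000 to 1500 nt had a median of -0.01 and those from 5000 nt upwards 0.21. In bulk libraries, fewer cells of a type and less RNA per cell cannot be told apart.

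**Figure D1:**
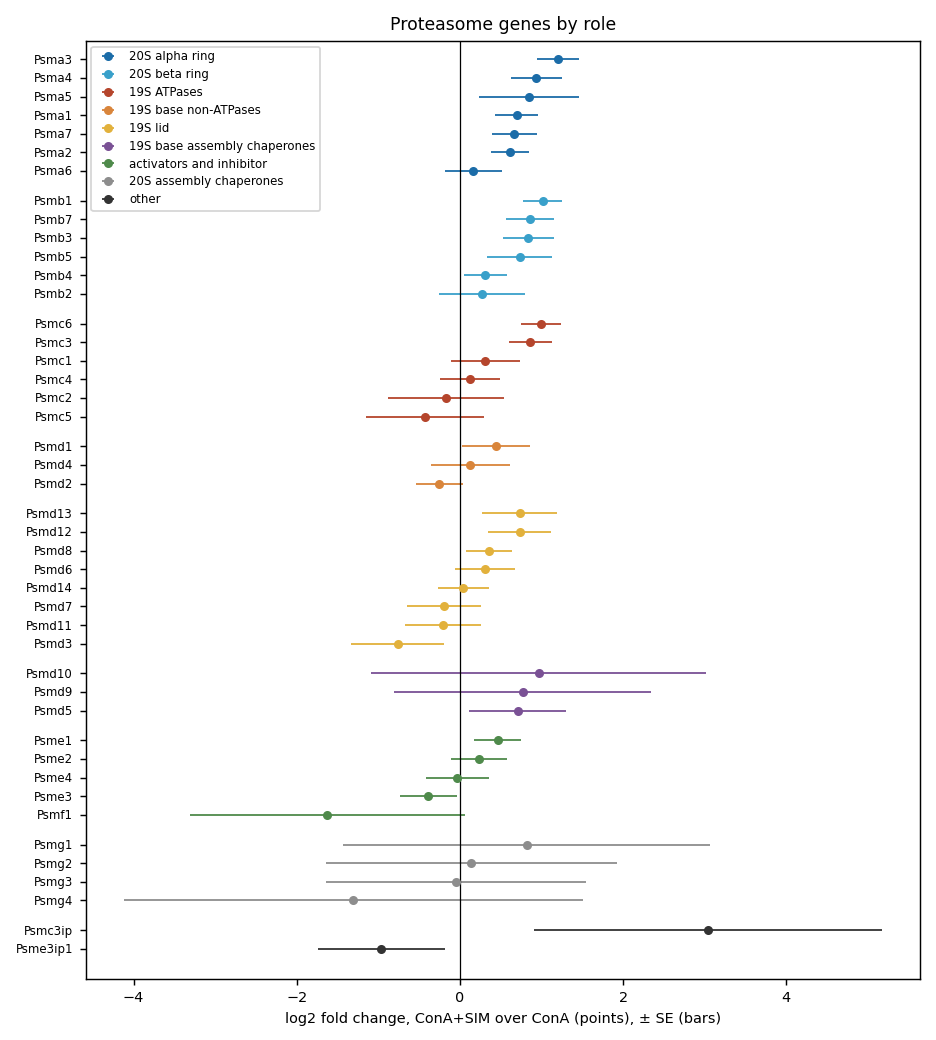
Log2 fold change of ConA+SIM over ConA for the 44 tested proteasome genes, on the horizontal axis, with bars for ± SE; rows are genes, grouped and coloured by role. All 13 tested genes of the 20S rings lie to the right of 0 (Psma1, Psma2, Psma6 and Psmb2 do not after length and GC offsets). The 19S ATPases, the other 19S base subunits and the lid each lie on both sides. The widest bars belong to Psmg4, Psmg1, Psmc3ip and Psmd10.

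Summed markers of other cells differed between the groups too. Neutrophil markers ran from 229 to 341 CPM in ConA and from 555 to 856 CPM in ConA+SIM, with 2 of 3 tested markers higher and S100a8 and S100a9 present in every library. Erythroid markers ran from 43.6 to 115 CPM and from 228 to 341 CPM, with 5 of 5 higher and 1 called higher by edgeR, the only called gene of the marker lists. NK and ILC1 markers ran from 167 to 394 CPM and from 477 to 497 CPM, with 5 of 6 higher and Ncr1 at 0 in every library. Klrb1c, the gene of NK1.1, for which the sort was negative, was present in every library at 6.66 to 43.3 CPM. Kupffer cell and macrophage markers were the reverse, from 317 to 520 CPM in ConA and from 71.3 to 306 CPM in ConA+SIM, with 1 of 7 higher and Clec4f and Timd4 at 0 in at least 1 library. The other lists overlapped between the groups: hepatocyte markers ran from 93.4 to 190 CPM and from 144 to 228 CPM, B and plasma cell markers from 114 to 1152 and from 456 to 856, endothelial markers from 208 to 1482 and from 287 to 446, CD8 T cell markers from 4.70 to 32.9 and from 26.2 to 53.9, and T cell markers from 2261 to 3515 and from 3437 to 3647. Their part in the levels of the proteasome genes was not tested.

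Promoter sequence is shown because all tested ring genes had log2 fold changes of 1 sign in the main fit while 19S genes had both. With length and GC offsets Psma1, Psma2, Psma6 and Psmb2 turned negative. RefSeq gave a promoter window for 40 of the 48 genes (GRCm38.p6), and the 250 bases before the transcription start were searched on both strands for TGACNNNGC, the core of the antioxidant response element that NRF1 binds, for CCAAT, the NF-Y box, for CCGGAAG, an ETS-type motif, and for TGACGTCA, the cyclic AMP response element. The windows printed are those of the gene with the smallest p among genes with a window in the alpha ring (Psma3), beta ring (Psmb3), ATPases (Psmc6) and lid (Psmd12), and of the catalytic gene Psmb5. Capitals mark every match, on either strand, and no matches overlap in these windows. The printed stretch of Psma3 is chr12:70974373-70974620, plus strand, that of Psmb3 chr11:97703184-97703398, plus strand, that of Psmb5 chr14:54618023-54618245, minus strand, that of Psmc6 chr14:45329574-45329787, plus strand, and that of Psmd12 chr11:107479278-107479483, plus strand. Each is printed 5′ to 3′ on the gene's strand from its first base to the last base before any exon in GENCODE M21, so 206 to 248 of the 250 bases are shown. The Psma3 window lies within the annotated gene, before a transcript start downstream of the gene's outer end.
Psma3: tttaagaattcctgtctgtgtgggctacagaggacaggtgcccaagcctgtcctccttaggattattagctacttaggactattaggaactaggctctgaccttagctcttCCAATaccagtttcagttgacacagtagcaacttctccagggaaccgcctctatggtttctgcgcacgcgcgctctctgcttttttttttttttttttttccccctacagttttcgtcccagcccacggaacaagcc
Psmb3: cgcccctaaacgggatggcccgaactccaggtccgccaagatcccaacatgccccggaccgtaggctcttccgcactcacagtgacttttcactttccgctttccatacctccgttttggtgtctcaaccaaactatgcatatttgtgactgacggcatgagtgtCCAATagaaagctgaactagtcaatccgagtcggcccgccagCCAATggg
Psmb5: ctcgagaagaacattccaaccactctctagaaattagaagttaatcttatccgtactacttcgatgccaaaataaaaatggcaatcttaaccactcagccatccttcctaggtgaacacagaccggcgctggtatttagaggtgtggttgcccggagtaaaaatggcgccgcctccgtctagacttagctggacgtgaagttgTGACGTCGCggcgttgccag
Psmc6: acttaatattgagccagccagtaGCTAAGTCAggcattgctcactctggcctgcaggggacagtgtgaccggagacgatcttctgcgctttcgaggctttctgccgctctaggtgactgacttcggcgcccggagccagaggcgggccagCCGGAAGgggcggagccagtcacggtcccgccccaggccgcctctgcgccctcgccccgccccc
Psmd12: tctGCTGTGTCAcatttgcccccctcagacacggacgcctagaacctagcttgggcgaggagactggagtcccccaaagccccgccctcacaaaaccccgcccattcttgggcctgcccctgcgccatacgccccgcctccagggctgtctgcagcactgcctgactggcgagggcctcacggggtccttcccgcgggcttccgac

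Matches were counted once per gene for rings and 19S particle and per window for the shares. CCGGAAG was found in 8 of 14 genes of the 19S particle (Psmc1, Psmc2, Psmc6, Psmd2, Psmd4, Psmd6, Psmd11 and Psmd12) and in 1 of 12 ring genes (Psma6); over windows, it was in 31.8% of those of all proteasome genes and in 6.91% of 32851 RefSeq windows. CCAAT was in 7 of 12 ring genes, 5 of them in the alpha ring (Psma1, Psma2, Psma3, Psma6 and Psma7), and in 4 of 14 genes of the 19S particle, against 33.8% of all windows. TGACNNNGC was in Psmb5, Psmb6, Psmc6, Psmd12 and Psmd9, 11.4% of the windows of proteasome genes and 10.2% of all windows, and in Psmb5 it ended 39 bases before the start. The CCGGAAG of Psmd12 lies in the exonic stretch that is not printed. TGACGTCA was in 0 windows of proteasome genes and in 1.55% of all windows. The 19S genes with CCGGAAG had both positive and negative log2 fold changes, from 0.99 for Psmc6 to -0.25 for Psmd2, and the difference in motifs between rings and 19S genes was not tested. These are matches of letters in a window and do not show binding.

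The alpha subunits form the outer rings and the gate of the 20S core. All 7 tested alpha genes had a positive log2 fold change, with a median of 0.70, although Psma6 turned negative with length offsets and Psma1, Psma2 and Psma6 with length and GC offsets. That median fell to 0.29 with length offsets and to 0.09 with length and GC offsets, beside 0.13 and 0.12 for all tested genes. In 5 of the 7 the groups did not overlap, where 9.18% of all tested genes were separated upwards, and 0 passed the test. Psma3 had the largest difference (chromosome 12, 70969283 to 70995877, GRCm38; promoter printed above). Its level in ConA was 128, 109 and 88.4 CPM and in ConA+SIM 243, 247 and 261 CPM, in the order of the replicate numbers as in all lists of 3 values here. The ConA+SIM values lay close together, with a coefficient of variation of 3.73%, and the lowest was well above the highest ConA value. The log2 fold change was 1.21 ± 0.26 (SE, edgeR adjusted p = 0.113), and Psma3 was called by DESeq2 at an adjusted p of 1.3e-04, by limma-voom at 0.046 and by the fit with quality weights at 0.0333. Psma4 stood at 175 ± 57.3 CPM in ConA and 335 ± 81.6 CPM in ConA+SIM (SD, n = 3 per group). Its log2 fold change was 0.94 ± 0.32, with an adjusted p of 0.391 by edgeR and 0.0171 by DESeq2.

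The other separated alpha genes had smaller differences. Psma1 had a log2 fold change of 0.70, Psma7 one of 0.67 and Psma2 one of 0.61. Psma5 had one of 0.85 with overlapping groups, since ConA+SIM replicate 2 held 22.2 CPM, the lowest of its 6 values, and the other ConA+SIM libraries 117 and 133 CPM. Psma6 had the smallest difference of the ring (chromosome 12, 55384222 to 55418459). It stood at 218, 117 and 198 CPM in ConA and at 287, 161 and 148 CPM in ConA+SIM. ConA+SIM replicates 2 and 3 fell inside the ConA range and ConA+SIM replicate 1 above it, and the log2 fold change was 0.16 ± 0.35.

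The beta subunits form the inner rings, where Psmb5, Psmb6 and Psmb7 encode the subunits with chymotrypsin-like, caspase-like and trypsin-like activity. All 6 tested beta genes had a positive log2 fold change, with a median of 0.78, although Psmb2 turned negative with either kind of offset. The median was 0.23 with length offsets and 0.37 with length and GC offsets. In 4 the groups did not overlap, where 9.18% of all tested genes were separated upwards, and 0 passed the test. Psmb1, a non-catalytic subunit, had the largest difference (chromosome 17, 15475721 to 15498276). Its level was 248, 283 and 230 CPM in ConA and 641, 380 and 513 CPM in ConA+SIM. All ConA+SIM values were above all ConA values, although they spread more widely. The log2 fold change was 1.01 ± 0.24 (edgeR adjusted p = 0.179), and Psmb1 was called by DESeq2 at an adjusted p of 3.8e-04 and by the fit with quality weights at 0.0197, but not by limma-voom, at 0.0501.

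Among the catalytic genes, Psmb7 stood at 201, 109 and 132 CPM in ConA and at 240, 319 and 242 CPM in ConA+SIM. The groups were separate, and the log2 fold change was 0.86 ± 0.30 (edgeR adjusted p = 0.392; 0.0348 by DESeq2). Psmb5 (chromosome 14, 54614120 to 54617995), whose window holds the antioxidant response element core printed above, stood at 56.1, 38.7 and 85.8 CPM in ConA and at 94.9, 91.1 and 114 CPM in ConA+SIM. Here too the groups were separate, by a small margin, with a log2 fold change of 0.73 ± 0.40 (edgeR adjusted p = 0.716). Psmb6 was almost empty in the table, whereas the copy row of the same symbol, Psmb6_1, held 41, 39 and 697 counts in ConA and 375, 27 and 334 in ConA+SIM, so no level of this subunit is given. With copy rows summed, its log2 fold change was 0.34 ± 2.00.

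Of the remaining beta genes, Psmb3 had a log2 fold change of 0.84 (edgeR adjusted p = 0.432; 0.0441 by DESeq2) and separate groups, and Psmb4 one of 0.31 with overlap. Psmb2 had the smallest difference, at 103, 32.4 and 52.7 CPM in ConA and 91.0, 42.8 and 92.7 CPM in ConA+SIM. Its ConA replicate 1 was the highest of all 6 values, and the log2 fold change was 0.27 ± 0.53.

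**Figure D2:**
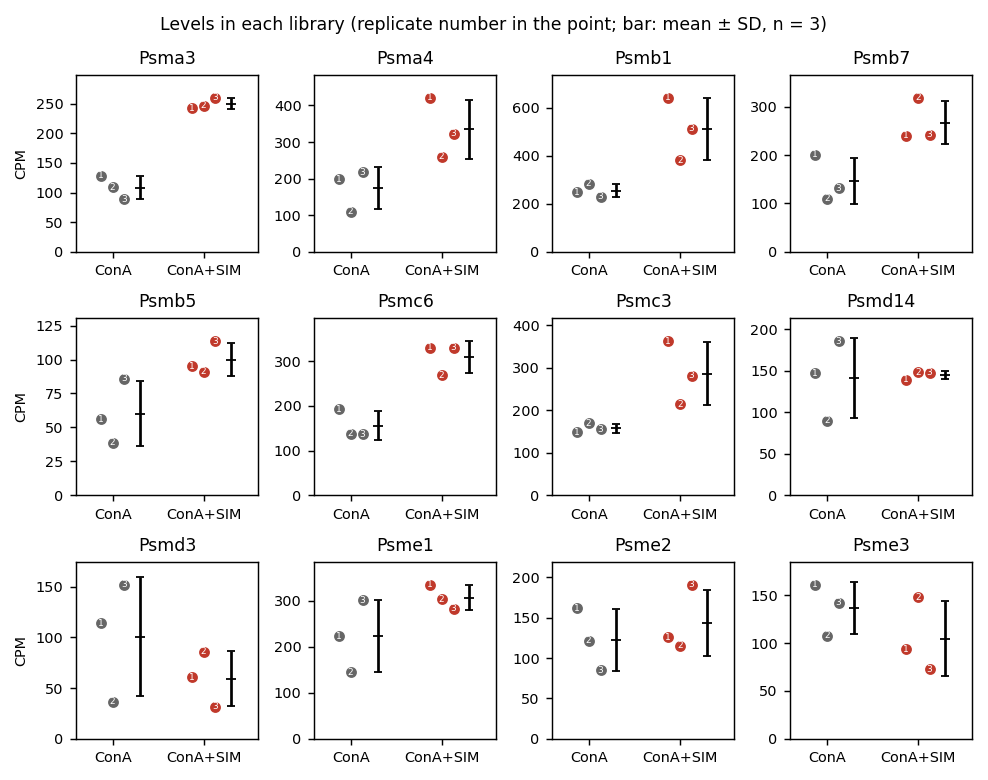
CPM (vertical axis, from 0) of 12 proteasome genes in each library of ConA (grey) and ConA+SIM (red), with the replicate number in each point and mean ± SD beside it (n = 3 per group). Psma3, Psma4, Psmb1, Psmb7, Psmb5, Psmc6 and Psmc3 show separate groups, and Psmd14, Psmd3, Psme1, Psme2 and Psme3 show overlap.

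The 19S base holds 6 ATPases, and they split in direction: 4 had positive and 2 negative log2 fold changes, with a median of 0.21, and 0 passed the test. Psmc6 had the largest (chromosome 14, 45329823 to 45349074; promoter printed above). Its level was 192, 138 and 136 CPM in ConA and 329, 268 and 330 CPM in ConA+SIM. The groups were separate, with a log2 fold change of 0.99 ± 0.25 (edgeR adjusted p = 0.213), and DESeq2 called it at an adjusted p of 0.0015 and the fit with quality weights at 0.0439. Psmc3 stood at 157 ± 10.5 CPM in ConA and 285 ± 74.3 CPM in ConA+SIM, also without overlap (log2 fold change 0.86 ± 0.26, edgeR adjusted p = 0.335; 0.0125 by DESeq2). Psmc1 and Psmc4 had log2 fold changes of 0.31 and 0.12 and Psmc2 one of -0.17, all with overlap. Psmc5 had the lowest, at 72.5, 61.4 and 138 CPM in ConA and 53.3, 13 and 136 CPM in ConA+SIM. ConA+SIM replicate 2 was the lowest and ConA+SIM replicate 3 close to the highest of all libraries, and the log2 fold change was -0.43 ± 0.72.

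The base also holds the large scaffold subunits Psmd1 and Psmd2 and the ubiquitin receptor Psmd4. Psmd1 stood at 75.2, 83.7 and 104 CPM in ConA and at 138, 56.5 and 163 CPM in ConA+SIM. ConA+SIM replicate 2 was the lowest value and the other ConA+SIM libraries the highest, and the log2 fold change was 0.44 ± 0.42. Psmd2 stood at 214, 210 and 237 CPM in ConA, a narrow range, and at 138, 162 and 255 CPM in ConA+SIM, with a log2 fold change of -0.25 ± 0.29. Psmd4 stood at 57.7, 195 and 127 CPM in ConA and at 145, 74.4 and 196 CPM in ConA+SIM, and its groups covered nearly the same range (log2 fold change 0.13 ± 0.49).

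The lid, which carries the deubiquitinase Psmd14, had 5 positive and 3 negative log2 fold changes in the 8 genes taken by name. Their median was 0.18 and the groups overlapped in all 8. The lid subunit Sem1, which the name rule left out, is given with the related genes below. Psmd14 (chromosome 2, 61711694 to 61800376) stood at 147, 89.7 and 185 CPM in ConA and at 139, 148 and 147 CPM in ConA+SIM. The 3 ConA+SIM values fell inside the ConA range, and the log2 fold change was 0.04 ± 0.32. The largest of these 8 was that of Psmd13, at 55.9, 99.7 and 136 CPM in ConA and 258, 96.4 and 129 CPM in ConA+SIM (log2 fold change 0.73 ± 0.46). Only ConA+SIM replicate 1 lay above the ConA range. Psmd12 had the smallest p of the 8, at 83.9, 46.1 and 84.5 CPM in ConA and 146, 82.0 and 128 CPM in ConA+SIM. There ConA+SIM replicate 2 lay just inside the ConA range (log2 fold change 0.73 ± 0.39, edgeR adjusted p = 0.697). Psmd3 had the lowest, at 114, 36.7 and 152 CPM in ConA and 60.8, 85.8 and 31.7 CPM in ConA+SIM (log2 fold change -0.76 ± 0.57), with a spread within ConA larger than the difference between the groups. Psmd8 and Psmd6 had log2 fold changes of 0.35 and 0.31, Psmd7 and Psmd11 of -0.20 and -0.20.

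Core and cap were then set side by side. The 13 tested ring genes had a median log2 fold change of 0.73 and separate groups in 9. The 17 genes of the 19S particle taken by name had a median of 0.13 and separate groups in 2, all upwards. Among all tested genes the median was -0.04, and 9.18% were separated upwards, a share near that of these 17. The name rule left out the lid subunit Sem1 and Adrm1, both given below among associated subunits and enzymes. Sem1 was separate upwards (log2 fold change 0.91) and Adrm1 overlapped (0.21). The summed level of the ring genes was 2184, 1667 and 1933 CPM in ConA and 3743, 2618 and 3272 CPM in ConA+SIM, without overlap. That of the 19S genes was 2080, 1786 and 2320 CPM in ConA and 2776, 1786 and 2928 CPM in ConA+SIM, with ConA+SIM replicate 2 at the level of the lowest ConA library. The ratio of ring to 19S counts was 1.05, 0.933 and 0.833 in ConA and 1.35, 1.47 and 1.12 in ConA+SIM, so each ConA+SIM library had a higher ratio than each ConA library. This difference between the groups of genes was not tested. Without ConA+SIM replicate 2 the median was 0.79 for the rings and 0.43 for the 19S genes.

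**Figure D3:**
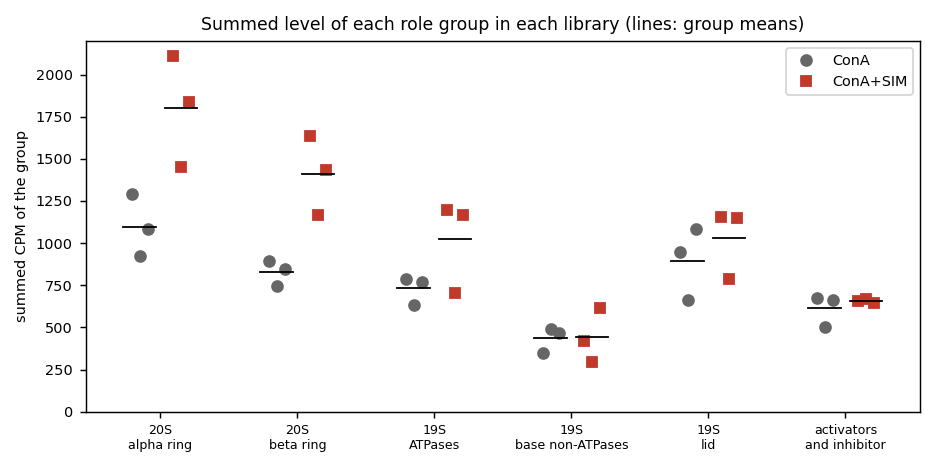
Summed CPM (vertical axis, from 0) of the genes of each role in each ConA (grey circles) and ConA+SIM (red squares) library, with lines at the group means. The alpha and beta rings are separate between the groups, and the 19S groups and activators overlap, with ConA+SIM replicate 2 the lowest of its group in the 3 sets of 19S genes.

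Activators open the gate of the 20S core in place of the 19S particle. Psme1 and Psme2 encode the interferon-inducible PA28 alpha and beta subunits, Psme3 the nuclear PA28 gamma and Psme4 the large activator PA200. None of these 4 passed the test, and the groups overlapped in each. Psme1 stood at 223, 145 and 301 CPM in ConA and at 335, 303 and 283 CPM in ConA+SIM (log2 fold change 0.46 ± 0.29), with only ConA replicate 3 inside the ConA+SIM range. Psme2 stood at 161, 121 and 85.0 CPM in ConA and at 126, 115 and 191 CPM in ConA+SIM (log2 fold change 0.23 ± 0.34). Psme3 stood at 161, 108 and 142 CPM in ConA and at 93.7, 148 and 72.6 CPM in ConA+SIM (log2 fold change -0.39 ± 0.35). Of its 3 ConA+SIM values, 2 lay below the ConA range and the other inside it. Psme4 stood at 120, 99.1 and 54.0 CPM in ConA and at 82.9, 105 and 78.8 CPM in ConA+SIM, all 3 inside the ConA range (log2 fold change -0.03 ± 0.39). Psmf1, which encodes the inhibitor PI31, stood at 6.36, 29.7 and 81.6 CPM in ConA and at 19.6, 0 and 18.5 CPM in ConA+SIM. Its ConA libraries spanned a wide range and its log2 fold change of -1.63 ± 1.68 carried an error as large as itself.

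Genes for assembly factors were low and erratic. The 19S base is built with the chaperones Psmd5, Psmd9 and Psmd10. Psmd5 stood at 13.8, 37.3 and 51.1 CPM in ConA and at 43.6, 69.4 and 53.9 CPM in ConA+SIM (log2 fold change 0.71 ± 0.59). Psmd10, which encodes gankyrin, held at most 3.83 CPM, in ConA+SIM replicate 1, and 0 in ConA+SIM replicate 2, while its ConA libraries held 0.817, 0.301 and 1.29 CPM and ConA+SIM replicate 3 held 0.905. No difference was detectable with that spread between libraries (log2 fold change 0.97 ± 2.05). Psmd9 had a log2 fold change of 0.77 ± 1.58 with 0 counts in ConA replicate 2. The 20S core is built with Psmg1 to Psmg4, whose summed level was only 52.7 ± 8.54 CPM in ConA and 47.3 ± 13 CPM in ConA+SIM. Psmg1 stood at 1.07, 0 and 0.548 CPM in ConA and at 0.106, 0 and 2.77 CPM in ConA+SIM (log2 fold change 0.82 ± 2.25). Psmg4 stood at 25.5, 0 and 13.5 CPM in ConA and at 4.57, 11.2 and 0 CPM in ConA+SIM (log2 fold change -1.31 ± 2.81). In both genes the spread within a group exceeded the difference between groups. Psmg2 and Psmg3 had log2 fold changes of 0.14 and -0.05, with SE of 1.78 and 1.6.

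The name rule also took in a pair of genes that are not subunits. Psmc3ip, which encodes the meiotic recombination factor HOP2, stood at 7.01, 0 and 2.04 CPM in ConA and at 20.1, 41.1 and 13.3 CPM in ConA+SIM. Its groups were separate, but the log2 fold change of 3.04 ± 2.14 did not pass (edgeR adjusted p = 0.887). Psme3ip1, which encodes a partner of PA28 gamma, stood at 48.9, 47.6 and 68.0 CPM in ConA and at 9.57, 63.3 and 11.3 CPM in ConA+SIM. ConA+SIM replicates 1 and 3 were low and ConA+SIM replicate 2 fell within the ConA range (log2 fold change -0.97 ± 0.78). Without this pair the other 42 tested genes had the same median, 0.33.

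Levels can be compared between genes only per length of transcript. In ConA the highest of all was Psme1, at 201 CPM per kb of transcript, followed by Psma7 at 187, Psmb3 at 184, Psma1 at 170 and Psma6 at 170; the spread over the libraries of these 5 overlapped, so their order is not resolved. The lowest ring genes were Psma3 at 38.1 and Psma5 at 40.8 CPM per kb. Psma3 was assigned its principal transcript of 2846 nt, whereas its shortest coding transcript has 859 nt, so its level per kb rests on that choice. In ConA+SIM Psmb3 was the highest, at 328 CPM per kb, before Psma7 at 297, Psmb1 at 291 and Psma4 at 287, again with overlapping libraries. Among the 19S genes taken by name Psmd8, a lid subunit, had the highest level in ConA, at 135 CPM per kb. Psmd1 and Psmd11 had the lowest, at 28.1 and 28.5. The spread between replicates was smaller for the ring genes than for all tested genes. The median coefficient of variation was 26.7% in ConA and 21.4% in ConA+SIM for the rings and 32.8% and 38.2% for the 19S genes. It was 45.5% and 48.0% for all tested genes. These sets were not matched for level, so the smaller spread is not shown to be particular to the ring genes.

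**Figure D4:**
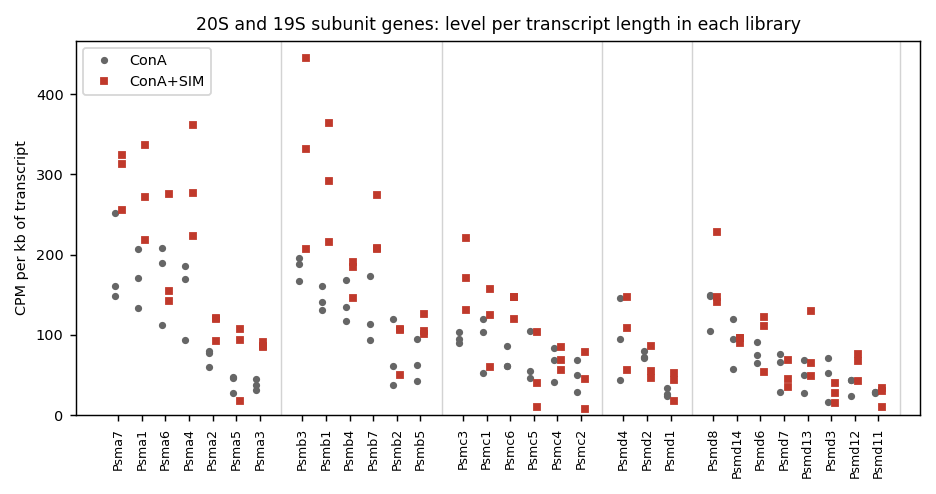
CPM per kb of transcript (vertical axis, from 0) of the 30 tested 20S and 19S subunit genes in each ConA (grey circles) and ConA+SIM (red squares) library; vertical lines divide the alpha ring, beta ring, ATPases, other base subunits and lid. ConA+SIM points lie above ConA points without overlap in 9 of the 13 ring genes and in 2 of the 17 genes of the 19S particle. Among all tested genes this share was 9.18%.

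Transcript length moved with the result. Over all tested genes the median log2 fold change was 0.57 below 1000 nt, 0.29 from 1000 to 1500 nt, 0.15 from 1500 to 2000 nt and -0.02 from 2000 to 3000 nt, and it was -0.32 from 5000 nt upwards. Ring genes have short transcripts, with a median of 1165 nt, against 1636 nt for the 19S genes and 2989 nt for all tested genes. Measured from the median of all genes in the same length band, 11 of the 13 ring genes were higher, by a median of 0.41, and 8 of the 17 genes of the 19S particle were higher, with a median difference of -0.11. With offsets fitted to the length trend of every library, the ring genes had a median of 0.29, beside 0.13 for all tested genes, and the 19S genes one of -0.02. With GC content as well, the values were 0.21, 0.12 and -0.04. The length offsets reversed the trend: all tested genes then had a median of -0.04 below 1000 nt, -0.01 from 1000 to 1500 nt and 0.21 from 5000 nt upwards. The 0.13 of all tested genes is therefore not a reference of like length for the short ring genes. Of single genes, Psma3 stood at 1.43 after length offsets and 0.79 with GC, Psmb1 at 0.84 and 0.48, Psmb7 at 0.67 and 0.58, Psmc3 at 0.66 and 0.87, and Psmc6 at 1.03 and -0.09, so that Psmc6 changed sign. Across the 44 tested genes, Spearman's rho of log2 fold change with length was -0.15, and -0.23 across 10460 tested genes with a length; these genes share the 6 libraries. How much of the difference in the ring genes goes with length or GC was not tested further.

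**Figure D5:**
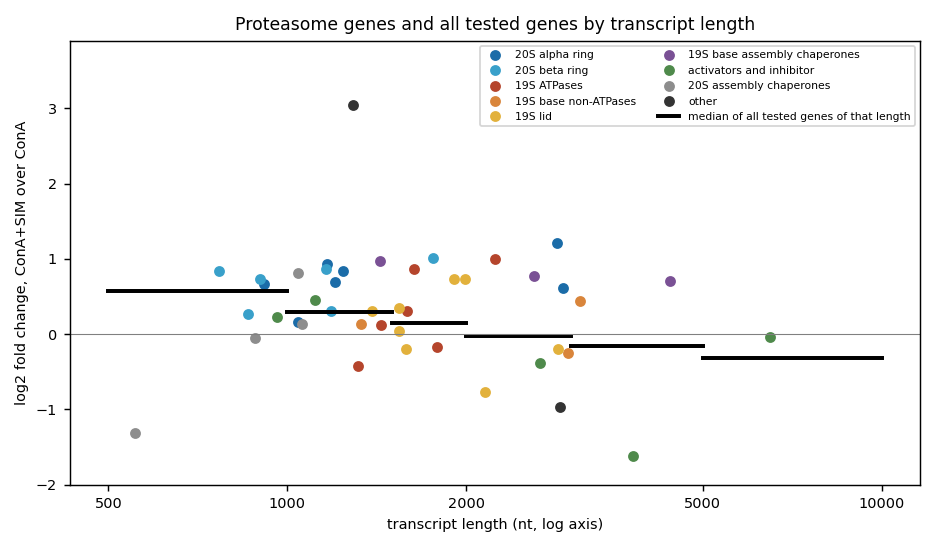
Log2 fold change of ConA+SIM over ConA (vertical axis) against transcript length in nt (log axis) for the 44 tested proteasome genes, coloured by role, with horizontal bars at the median of all tested genes in each length band. The bars step down from 0.57 in the shortest band to -0.32 in the longest, and 11 of the 13 ring genes lie above the bar of their band.

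Genes that work with the proteasome were looked at in 5 lists, with 35 tested genes of 36 rows. By edgeR 1 was called higher and 0 lower, where 0.542% and 0% of all tested genes were called. Groups were separate upwards in 3 and downwards in 7, where 9.18% and 8.57% of all tested genes were separate. The called gene was Rps27a, which encodes ubiquitin fused to a ribosomal protein. It stood at 531, 656 and 805 CPM in ConA and rose to 2746, 2109 and 1621 CPM in ConA+SIM. Its log2 fold change was 1.70 ± 0.24, with an edgeR adjusted p of 0.0301. In the 6 fits that left out a library its log2 fold change ran from 1.49 to 1.89 without an adjusted p under 0.05. Those fits called 0% of all tested genes, apart from 0.0274% without ConA+SIM replicate 3.

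Associated subunits and enzymes gave 9 positive and 2 negative log2 fold changes in 11 genes, with a median of 0.21. Sem1, the smallest lid subunit, had the smallest p of that list, at 130, 128 and 99.1 CPM in ConA and 217, 209 and 245 CPM in ConA+SIM. Its groups were separate (log2 fold change 0.91 ± 0.25, edgeR adjusted p = 0.27; 0.0073 by DESeq2), and it stood at -0.39 after length and GC offsets. Pomp, the maturation factor of the 20S core, stood at 212, 90.4 and 122 CPM in ConA and 207, 180 and 333 CPM in ConA+SIM (log2 fold change 0.76 ± 0.38). Usp14, a deubiquitinase bound to the 19S particle, stood at 21.4, 25.8 and 54.8 CPM in ConA and 54.3, 98.8 and 33.9 CPM in ConA+SIM (log2 fold change 0.87 ± 0.60). Neither of these last genes had separate groups.

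Nfe2l1 encodes NRF1, the transcription factor that raises proteasome genes when proteasome activity is short. Its level was 50.9, 70.4 and 53.5 CPM in ConA and 61.2, 62.8 and 61.0 CPM in ConA+SIM, all inside the ConA range (log2 fold change 0.08 ± 0.39). It stood at 0.52 with length offsets and 0.88 with length and GC offsets. The 10 tested genes of NRF1 and its processing had a median of -0.09, with 5 positive and 5 negative, and the median was 0.19 and 0.42 with these offsets. Vcp, the ATPase that extracts NRF1 and other proteins from the endoplasmic reticulum, had the smallest p of that list, at 321, 336 and 388 CPM in ConA and 213, 305 and 245 CPM in ConA+SIM (log2 fold change -0.45 ± 0.22, edgeR adjusted p = 0.652), and its groups did not overlap. Shuttle factors, which carry ubiquitinated proteins to the proteasome, had a median of 0.09 over 5 genes, and the smallest p there belonged to Ubqln4, at 25.2, 30.6 and 45.9 CPM in ConA and 63.4, 69.5 and 31.7 CPM in ConA+SIM (log2 fold change 0.69 ± 0.54).

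The immunoproteasome genes replace the catalytic beta subunits in lymphocytes and after interferon. All 3 had negative log2 fold changes and 0 passed the test. Psmb10, the counterpart of Psmb7, stood at 112, 98.4 and 88.0 CPM in ConA and at 73.5, 60.6 and 68.7 CPM in ConA+SIM, and Psmb8, the counterpart of Psmb5, at 30.9, 64.4 and 12 CPM and at 6.70, 5.93 and 6.76 CPM. Both were separate downwards (log2 fold changes -0.56 ± 0.33 and -2.47 ± 1.11, edgeR adjusted p = 0.791 and 0.575), whereas Psmb7 and Psmb5 were separate upwards. Among all tested genes 8.57% were separate downwards and 9.18% upwards, and the contrast between these subunits was not tested. Psmb9 stood at 1.07, 3.16 and 4.27 CPM in ConA and at 2.98, 1.98 and 2.02 CPM in ConA+SIM. Psmb8 and Psmb9 each had 3 copy rows with few counts, and reads that match several rows may be missing from their levels, since the sources used here do not say how such reads were counted.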

How the data were processed

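RNA was sequenced from 6 libraries of sorted liver CD4+ T cells, 3 per group. The submitters' processing notes name HISAT2 2.1.0 and build GRCm38. Counting tool, annotation, strand setting and the handling of multi-mapped reads: not given in the sources used here. Whole-number counts per gene, not normalized, were deposited by the authors, with 1 column per sample named by its title; 0 columns were left unused. The labels do not say that libraries of 1 group are from different animals; p-values then reflect only how far these libraries spread, which may be technical. No batch is named. No pair of libraries in a group agreed within sampling noise (chi-square 138 to 287 times its degrees of freedom).

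Counts were filtered with filterByExpr, scaled by TMM and tested with the quasi-likelihood F test of edgeR 4.0.16 (robust) (R 4.3.3) for ConA+SIM against ConA with no covariate, with Benjamini-Hochberg adjustment over all 10509 tested genes and a threshold of 0.05. SE is the log2 fold change divided by the square root of F. CPM use the TMM-scaled totals, and CPM per kb the GENCODE M21 principal transcript (GRCm38), found for 99.5% of tested genes. Coordinates are RefSeq's for GRCm38.p6. Same-numbered libraries did not deviate together (r = 0.00934, 0.00993 and 0.0434), so numbers were not treated as pairs. The fit was also run on simulated data, and the outcome is not reported here. EdgeR's common biological coefficient of variation, the spread between libraries beyond counting error, was 1.12. With a spread this wide, a gene that was not called is not shown to be unchanged.

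The proteasome genes, related lists, markers and naming rule were chosen with earlier results of these data known. Values in all libraries are given for genes past the threshold, for the highest and lowest log2 fold change and the smallest p of each role, and for Psmb5, Psmb6, Psmb7, Psme1 to Psme4, Psmf1, Psmd4 and Psmd14. From the related lists these are genes past the threshold, the smallest p of each list, Nfe2l1, Pomp, Usp14 and the immunoproteasome genes. The motifs searched were chosen after values were seen. Alternatives were RLE scaling, no filter, at least 5 CPM in 3 libraries, DESeq2 1.42.0, limma-voom 3.58.1 with and without sample quality weights, the replicate block, leaving out each library, offsets (natural splines with 4 df per term) for transcript length or for length and GC, copy rows summed, and ribosomal protein genes left out. DESeq2 gave no adjusted p for 5709 genes. Some results for related genes are not reported here.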

Additional observations from a re-analysis of the deposited data

How the results depend on the processing

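Under the 17 alternatives, 22 of the 44 tested proteasome genes kept their direction. The number of proteasome genes called higher stayed at 0 with edgeR under every alternative. It was 7 with DESeq2 (3.39% of all tested genes), 1 with limma-voom (1.14%) and 3 with sample quality weights (1.21%), and none was called lower. EdgeR called 0% of all tested genes with either kind of offset, without ribosomal protein genes and with the replicate block. Without any 1 library it also called 0%, apart from 0.0274% without ConA+SIM replicate 3. A 0 for proteasome or related genes in these fits therefore cannot tell them from other genes. Of the related genes, 1 was called in the main test, 3 with DESeq2 (Rps27a and Sem1 among them, both higher) and 0 with the replicate block, with either kind of offset, without ribosomal protein genes (which leaves Rps27a itself untested) or without any 1 library. Psmd10 and Psmg1 held at most 3.83 CPM and scattered between libraries, with 72, 0 and 17 counts of Psmd10 in ConA+SIM. The other chaperones scattered between libraries at higher counts. Same-numbered libraries shared only a number, and under the replicate block edgeR called 0 of all tested genes; the median of the proteasome genes was 0.30.

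Changes of sign were as follows, in log2 fold change; the cause was not tested. Length and GC offsets gave Psma1 -0.14, Psma2 -0.0037, Psma6 -0.46, Psmb2 -0.39, Psmc6 -0.085, Psmd2 0.12, Psmd4 -0.14, Psmd14 -0.51, Psmd6 -0.31, Psmd10 -0.19, Psme2 -0.20, Psme3 0.10, Psme4 0.31, Psmg1 -0.021, Psmg2 -1.14, Psmg3 0.22, Psme3ip1 0.018, Sem1 -0.39 and Vcp 0.076. Length offsets gave Psma6 -0.24, Psmb2 -0.40, Psmc4 -0.017, Psmd4 -0.34, Psmd6 -0.12, Psme2 -0.31, Psme3 0.025, Psme4 0.52, Psmg1 -0.045, Psmg2 -0.83 and Psmg3 0.031. Quality weights gave Psmc2 0.17, Psmd14 -0.016 and Psme4 0.10. Limma-voom gave Psmd10 -0.59, Psme4 0.052, Psmg1 -0.20 and Psmg2 -1.63. The replicate block gave Psmd10 -0.68, Psme4 0.033 and Psmg1 -0.31. Summing copy rows gave Psmb9 0.041. Leaving out 1 library at a time gave ranges that crossed 0 for Psma6 (-0.20 to 0.34), Psmb2 (-0.060 to 0.81), Psmc2 (-0.91 to 0.33), Psmc4 (-0.13 to 0.33), Psmc5 (-1.45 to 0.064), Psmd4 (-0.23 to 0.57), Psmd11 (-0.50 to 0.16), Psmd14 (-0.21 to 0.32), Psmd7 (-0.53 to 0.086), Psmd10 (-0.82 to 1.55), Psme2 (-0.025 to 0.47), Psme4 (-0.27 to 0.21), Psmg1 (-3.20 to 1.76), Psmg2 (-0.44 to 0.80), Psmg3 (-0.95 to 0.47), Nfe2l1 (-0.018 to 0.23) and Psmb9 (-0.69 to 0.16).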

Other observations

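Of the 44 tested proteasome genes, 35 had at least 10 CPM in every library. Among the 35, ConA replicate 2 held the lowest level of 14 genes and the highest of 0, and ConA+SIM replicates 1 and 3 held the highest of 14 and 12. Tested genes with 0 counts in at least 1 library numbered 7; 4 of them were at 0 in ConA replicate 2 and 4 in ConA+SIM replicate 2. The copy row Psme2b_1 held 82, 219 and 127 counts in ConA and 62, 53 and 55 in ConA+SIM, and the copy rows Psmd10_1 and Psmg1_1 held 0 in every library.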
